A study of Mus musculus with 6 samples.

Results

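The glutathione S-transferases (GSTs) examined here were 10 genes chosen by name from the 44788 genes listed for mouse ovary RNA-seq. They were the alpha class genes Gsta1, Gsta2, Gsta3 and Gsta4, the mu class genes Gstm1, Gstm2 and Gstm5, the pi class gene Gstp1, the theta class gene Gstt1 and the membrane-bound Mgst1. All 10 passed the filter on low counts and were among the 19423 genes tested. The comparison was between whole ovaries of Bnc1+/+ mice (3 libraries, replicates 1, 4 and 7) and of Bnc1tr/tr animals (3 libraries, replicates 1, 2 and 3). All mice were C57BL/6 J and 8 weeks old. Bnc1tr/tr mice were homozygous in every tissue for a truncating frameshift deletion in Bnc1, which encodes the zinc finger transcription factor BNC1, and Bnc1+/+ mice were littermate controls without it. No drug or hormone treatment was given in the labels, and neither the stage of the estrous cycle nor pooling of animals was stated there. Bnc1 reads were at 13.5 ± 0.407 CPM in Bnc1+/+ and 14.6 ± 3.72 CPM in Bnc1tr/tr ovaries (SD, n = 3), so the level of reads summed over the gene did not separate the genotypes.

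GSTs join the tripeptide glutathione to electrophilic molecules, which makes these easier to export and less able to attack proteins and DNA. The soluble enzymes fall into classes by sequence, and a separate family of small membrane proteins, the MGSTs, does similar chemistry at the endoplasmic reticulum and the mitochondrial outer membrane. Several alpha class enzymes and MGST1 also reduce lipid hydroperoxides with glutathione, and alpha class proteins are known to be abundant in steroid-producing tissues.

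Of the 10 GST genes, Gsta2 and Gstm5 were higher in Bnc1tr/tr ovaries and none was lower. Gsta2 rose 1.78-fold, from 7.46 ± 0.505 to 13.3 ± 3.04 CPM, and Gstm5 rose 1.35-fold, from 52.0 ± 6.17 to 70.2 ± 3.07 CPM (SD, n = 3). CPM is a count scaled to a library of common size after TMM normalization, a scaling that centres the libraries on genes with little change. A gene was called where its p from edgeR's quasi-likelihood test, adjusted over all 19423 genes with the Benjamini-Hochberg method (the edgeR adjusted p), was under 0.05. Over the whole table, 7.06% of the genes tested were called, 2.88% as higher (559 genes) and 4.19% as lower (813 genes), and with scaling by library size alone 1112 were called higher and 616 lower. The log2 fold change (Bnc1tr/tr over Bnc1+/+) was positive for 9 of the 10 genes, with a median of 0.37 against 0.018 over all genes tested. An unadjusted p under 0.05 was found for 4 of the 10 genes, also Gsta1 and Gstm1, and for 24.2% of all genes tested. The 2 calls depended on which ovaries were included. Of the 6 fits that left out 1 ovary, 5 called none of the 10 genes, and these 5 called between 1.60% and 4.89% of all genes. The fit without Bnc1tr/tr replicate 2 called 6.4% of all genes. Among the 10 it called Gsta1 (edgeR adjusted p = 0.0385) and Gsta2 (edgeR adjusted p = 0.0129) but not Gstm5 (edgeR adjusted p = 0.0980). In Gsta1, Gsta2 and Gstm5 every Bnc1tr/tr ovary lay above every Bnc1+/+ ovary. Such separation in that direction was found for 15.0% of all genes tested, in the opposite direction for 15.8%, and in either direction for 30.8%. These were whole-ovary samples, in which a change in the share of a cell type and a change in RNA per cell cannot be told apart.

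**Figure D1:**
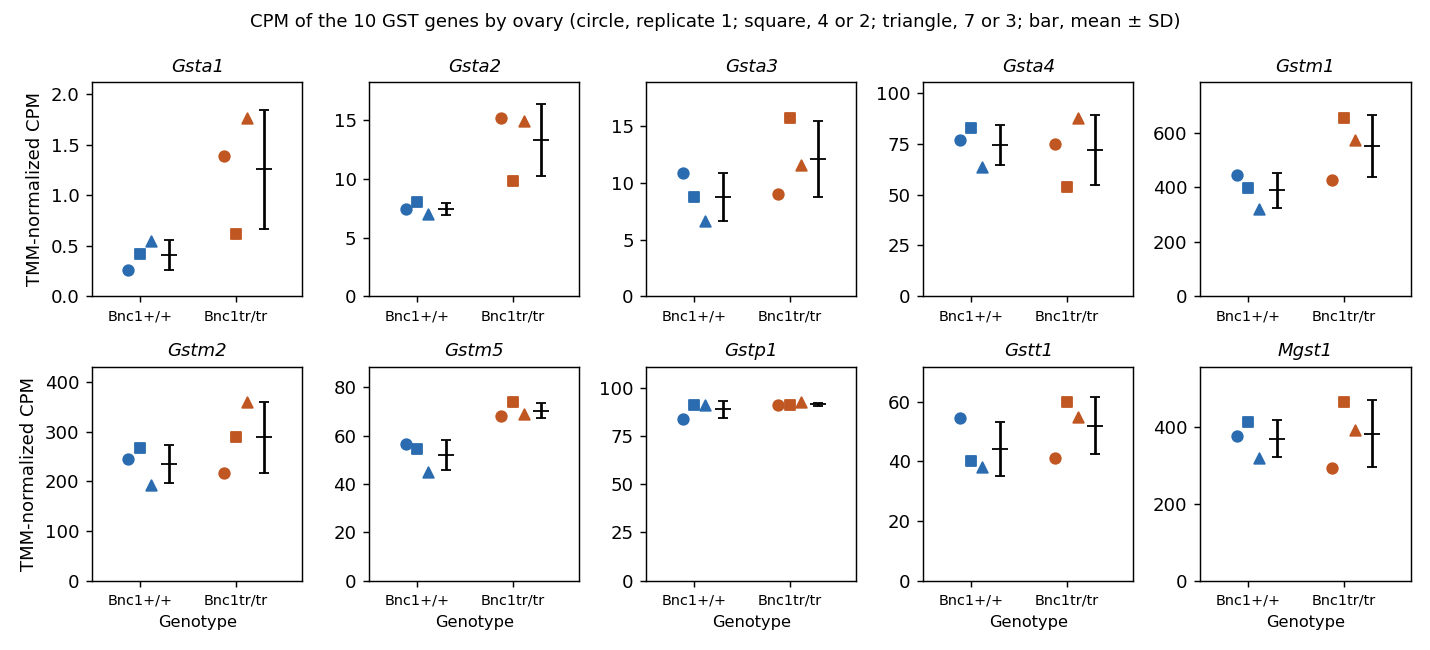
Normalized CPM (vertical axes, each starting at 0) of the 10 GST genes in each ovary by genotype, with replicate 1 as a circle, replicates 4 and 2 as squares and replicates 7 and 3 as triangles; bars give the mean ± SD of 3 ovaries. The 2 genotypes do not overlap for Gsta1, Gsta2 and Gstm5 and overlap for the other 7 genes.

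Corrected for gene length, the 10 genes covered a 612-fold range in Bnc1+/+ ovaries. Per kilobase of exon, Gstm1 was the highest at 263 ± 42.4 CPM, followed by Mgst1 at 184 ± 23.6 and Gstm2 at 140 ± 22.5 (SD, n = 3). Gsta4 at 58.7 ± 7.78 and Gstp1 at 57.3 ± 2.73 CPM per kilobase came next, and their ovaries overlapped. Gstm5 at 40.7 ± 4.83 and Gstt1 at 28.9 ± 5.91 CPM per kilobase also overlapped. The other 3 alpha class genes closed the order, with 6.34 ± 0.429 CPM per kilobase for Gsta2, 2.01 ± 0.487 for Gsta3 and 0.431 ± 0.153 for Gsta1. No other neighbours in this order overlapped, although the lowest Mgst1 ovary (158.7 CPM per kilobase) was almost level with the highest Gstm2 ovary (158.5). In Bnc1tr/tr ovaries the order was the same except that Gstp1 (59.1 ± 0.511 CPM per kilobase) stood just above Gsta4 (56.9 ± 13.5). There Mgst1 (190.2 ± 42.9) overlapped Gstm2 (172 ± 42.2), and Gstm5 (55.0 ± 2.40) overlapped Gsta4. Lengths were the union of annotated exons, so the place of a gene such as Gsta3, with 4.344 kilobases, depends on which isoforms are used, which was not measured. As shares of reads, Gstm1 and Mgst1 together held between 58.2% and 65.3% of the counts of the 10 genes in every ovary. The 10 genes held between 73.9% and 75.4% of the counts of all GST genes in Bnc1+/+ ovaries and between 78.4% and 80.7% in Bnc1tr/tr ovaries.

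**Figure D2:**
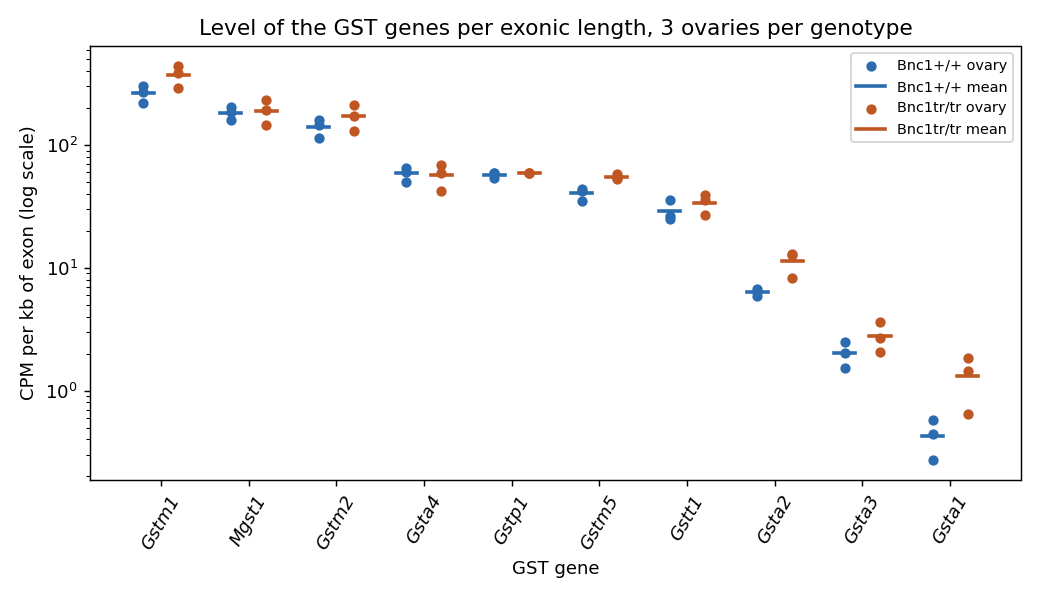
Level of each of the 10 GST genes in CPM per kilobase of exon (log scale), ordered by the Bnc1+/+ mean, with a point for each of 3 ovaries per genotype and a bar for the mean. The order runs from Gstm1 at 263 to Gsta1 at 0.431 CPM per kilobase in Bnc1+/+ ovaries.

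The alpha class genes Gsta1, Gsta2 and Gsta4 lie in a cluster on chromosome 9 of GRCm38 (GENCODE M21 annotation), and Gsta3 lies on chromosome 1 from 21240589 to 21265661. Gsta4 spans positions 78182774 to 78209349, Gsta1 spans 78230656 to 78242684, and Gsta2, on the opposite strand, spans 78331018 to 78355788. Between Gsta1 and Gsta2 lie the annotated coding genes Gm3776 (78257129 to 78269166) and Gm10639 (78289923 to 78305525). These were added to the description after their values were seen, because their sequences decide how reads of Gsta1 and Gsta2 can be told apart. The coding sequence of Gsta1 was 99.7% identical to that of Gm3776 and 97.5% identical to that of Gsta2, and Gsta2 was 98.5% identical to Gm10639. Gsta3 and Gsta4 stood apart, with 73.8% and 66.0% identity to Gsta1. The stretch from base 449 to base 508 of the coding sequence is shown for the 4 near copies because it is where Gsta1 and Gsta2 differed most, at 5 of 60 bases, and capitals mark bases that differ from Gsta1.
Gsta1: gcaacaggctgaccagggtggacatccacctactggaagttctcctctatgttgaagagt
Gm3776: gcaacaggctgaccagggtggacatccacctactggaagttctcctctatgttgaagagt
Gm10639: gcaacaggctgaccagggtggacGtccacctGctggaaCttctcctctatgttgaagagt
Gsta2: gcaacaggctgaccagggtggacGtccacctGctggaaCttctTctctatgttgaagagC

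Reads of Gsta1, and to a lesser extent of Gsta2, can match more than 1 gene. Of the 50-base stretches of annotated Gsta1 transcripts, 90.5% also occurred in another gene, most often Gm3776, and this was 49.8% for Gsta2, most often in Gsta1. With 100-base stretches the shares were 80.6% and 28.4%. For Gsta3 the share was 0.273% with 50-base stretches, and none of the stretches of Gsta4 was shared. The read length and how reads with several matches were counted are not given in the sources used here, so the separate values of Gsta1 and Gsta2 are uncertain, and those of Gsta3 and Gsta4 are not limited in this way.

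**Figure D3:**
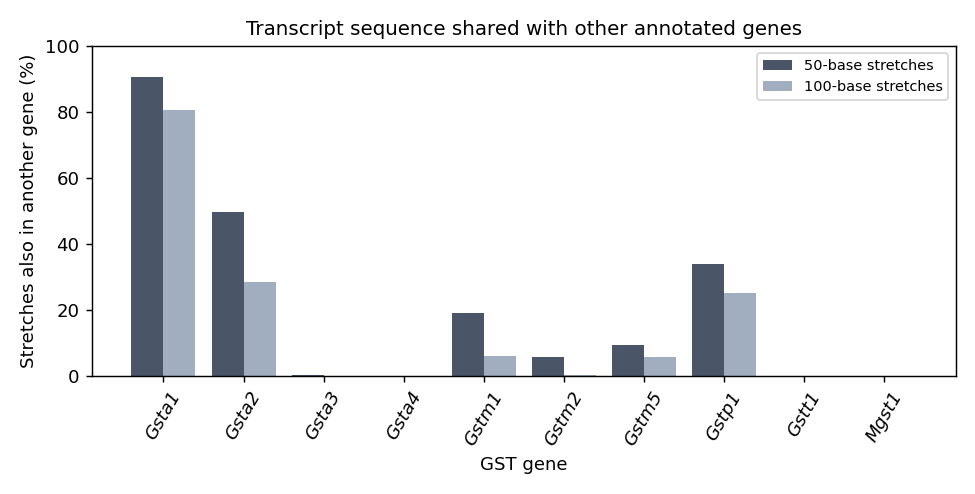
Percent of the 50-base (dark) and 100-base (light) stretches of each GST gene's annotated transcripts that also occur in transcripts of another gene. Gsta1 is highest at 90.5%, followed by Gsta2 at 49.8% and Gstp1 at 33.7%; Gsta4, Gstt1 and Mgst1 share none.

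Gsta2, an alpha class transferase with broad substrates, was at 7.43, 7.98 and 6.97 CPM in Bnc1+/+ replicates 1, 4 and 7 and at 15.2, 9.78 and 14.9 CPM in Bnc1tr/tr replicates 1, 2 and 3. The Bnc1+/+ ovaries lay close together, Bnc1tr/tr replicates 1 and 3 were far above them, and replicate 2 was only a little above the highest Bnc1+/+ ovary. This gave a log2 fold change of 0.83 (standard error 0.19, edgeR adjusted p = 0.0402). The call was lost without Bnc1+/+ replicate 1, 4 or 7 and without Bnc1tr/tr replicate 1 or 3, with log2 fold changes between 0.73 and 0.87 and edgeR adjusted p between 0.0876 and 0.136. It was kept without Bnc1tr/tr replicate 2, and was lost with limma-voom (adjusted p = 0.0528).

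Gsta1, the closest alpha class relative of Gsta2 among the 10 genes, was the least counted, with 7, 14 and 16 counts in the Bnc1+/+ ovaries and 39, 16 and 50 counts in the Bnc1tr/tr ovaries. These corresponded to 0.260, 0.423 and 0.552 CPM against 1.39, 0.616 and 1.76 CPM. As for Gsta2, the lowest Bnc1tr/tr value was that of replicate 2, which lay just above the highest Bnc1+/+ ovary. Its log2 fold change of 1.60 was the largest of the 10 but had a standard error of 0.46 and an edgeR adjusted p of 0.0810. DESeq2 called it (adjusted p = 0.0481), and so did the edgeR fit without Bnc1tr/tr replicate 2 (adjusted p = 0.0385).

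The near copies are described with them. Gm10639 had 0.297, 0.242 and 0.379 CPM in Bnc1+/+ and 2.03, 1.15 and 2.43 CPM in Bnc1tr/tr ovaries, and again replicate 2 was the lowest of the Bnc1tr/tr ovaries. It was called as higher, with a log2 fold change of 2.60 (standard error 0.38, edgeR adjusted p = 0.00874). Gm3776, with 2, 0 and 7 counts against 16, 4 and 9, overlapped between the genotypes and did not pass the filter. Summing Gsta1 and Gsta2 into a single entry gave a log2 fold change of 0.88 (edgeR adjusted p = 0.0375). Summing all 4 near copies, an alternative added after seeing the data, gave 1.02 (edgeR adjusted p = 0.0267). Such sums do not depend on how counted reads were divided among the copies. Most counts in both sums came from Gsta2 (254 in Bnc1tr/tr replicate 2, against 16 for Gsta1), so the sums largely repeat the Gsta2 result.

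Gsta3, whose product in mice is known for conjugating the activated form of aflatoxin, had 10.9, 8.73 and 6.62 CPM in Bnc1+/+ and 9.03, 15.7 and 11.6 CPM in Bnc1tr/tr ovaries. The genotypes overlapped, Bnc1tr/tr replicate 1 falling below Bnc1+/+ replicate 1. The log2 fold change was 0.47 (standard error 0.25, edgeR adjusted p = 0.291). Gsta4, which acts on reactive aldehydes formed when lipids are oxidized, was the most abundant alpha class gene, at 76.6, 82.8 and 63.5 CPM against 74.6, 53.8 and 87.6 CPM. Bnc1tr/tr replicates 2 and 3 were the lowest and the highest of the 6 ovaries. Its log2 fold change of -0.04 (standard error 0.18, edgeR adjusted p = 0.909) was within the spread of the replicates and turned positive with scaling by library size alone (0.06) and when Bnc1+/+ replicate 4 (0.03) or Bnc1tr/tr replicate 2 (0.13) was left out. The summed alpha class reads, most of which came from Gsta4, were at 90.9 ± 11.7 CPM in Bnc1+/+ and 98.7 ± 18.0 CPM in Bnc1tr/tr ovaries (SD, n = 3; exact two-sided permutation p = 0.4). With 3 ovaries against 3 this test cannot give a p under 0.1.

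The mu class had the highest summed level of the GST classes. Gstm1 (chromosome 3, positions 108012255 to 108017973), Gstm2 (107981702 to 107986453) and Gstm5 (107895821 to 107898686) lie in a cluster on chromosome 3 with Gstm3, Gstm4, Gstm6 and Gstm7. Gstm5 is the most distant member by sequence, with a coding sequence 69.5% identical to that of Gstm1, whereas Gstm1 and Gstm2 were 86.0% identical. The opening 60 coding bases show how far Gstm2 departs from Gstm1, with 12 different bases in capitals.
Gstm1: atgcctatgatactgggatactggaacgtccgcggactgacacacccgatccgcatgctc
Gstm2: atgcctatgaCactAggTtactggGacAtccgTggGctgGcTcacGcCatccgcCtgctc

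Gstm5, a mu class enzyme, was at 56.5, 54.5 and 45.0 CPM in Bnc1+/+ and at 68.1, 73.8 and 68.9 CPM in Bnc1tr/tr ovaries. The 3 Bnc1tr/tr ovaries were close together and all above the Bnc1+/+ ovaries, of which replicate 7 was the lowest. With a log2 fold change of 0.43 (standard error 0.10, edgeR adjusted p = 0.0474), Gstm5 was just past the threshold. The call was lost when any of the 6 ovaries was left out, with log2 fold changes between 0.33 and 0.49 and edgeR adjusted p between 0.0691 and 0.148, and without the most highly counted genes of each ovary (edgeR adjusted p = 0.0514). Gstm5 overlaps the antisense transcript 4933431E20Rik at its start, and 9.44% of its 50-base stretches are shared with it. That transcript had 14.1 ± 1.15 CPM in Bnc1+/+ and 16.7 ± 2.30 CPM in Bnc1tr/tr ovaries (SD, n = 3; log2 fold change 0.24, edgeR adjusted p = 0.311). Whether counting used strand is not given in the sources used here. Counted as a single gene, an alternative added after seeing the data, the pair had a log2 fold change of 0.39 (edgeR adjusted p = 0.0405).

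Gstm1, a mu class enzyme with broad detoxifying activity, had 445, 397 and 321 CPM in Bnc1+/+ and 427, 653 and 572 CPM in Bnc1tr/tr ovaries. Bnc1tr/tr replicates 2 and 3 exceeded every Bnc1+/+ ovary, while replicate 1 lay below Bnc1+/+ replicate 1. The log2 fold change was 0.50 (standard error 0.18), with an edgeR adjusted p of 0.134 and a DESeq2 adjusted p of 0.0483. Gstm2, its close relative, had 245, 266 and 193 CPM against 217, 289 and 359 CPM. Bnc1tr/tr replicate 1 again lay inside the Bnc1+/+ range, replicate 3 was the highest ovary, and the log2 fold change was 0.30 (standard error 0.19, edgeR adjusted p = 0.392). The processed pseudogene Gstm2-ps1 on chromosome 5, which holds most of the sequence that Gstm1 shares with other genes (18.9% of 50-base stretches shared in all), had 66.9 ± 10.6 CPM and 87.5 ± 18.2 CPM (SD, n = 3). The pseudogene, at a log2 fold change of 0.39 (standard error 0.17, edgeR adjusted p = 0.217), was named after its values were seen. The Gstm genes counted as a single entry, pseudogene included, had a log2 fold change of 0.36 (edgeR adjusted p = 0.248).

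Gstp1, the pi class enzyme, lies on chromosome 19 from 4035407 to 4037985, next to Gstp2 (4040285 to 4046023). Their coding sequences were 98.1% identical, and 33.7% of the 50-base stretches of Gstp1 transcripts occurred in another gene. The opening 60 coding bases hold 6 of the differences, in capitals, that a read can use to separate the pair.
Gstp1: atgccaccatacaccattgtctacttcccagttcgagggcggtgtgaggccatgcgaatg
Gstp2: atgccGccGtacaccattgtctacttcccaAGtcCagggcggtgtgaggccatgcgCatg

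Gstp1 had the smallest standard error of the 10 genes. It was at 83.8, 91.2 and 91.1 CPM in Bnc1+/+ and 90.9, 91.1 and 92.3 CPM in Bnc1tr/tr ovaries. Apart from Bnc1+/+ replicate 1, all ovaries were nearly level. Between the genotypes the log2 fold change was 0.04 (standard error 0.07, edgeR adjusted p = 0.762), and it became slightly negative (-0.0046) without Bnc1+/+ replicate 1. Gstp1 and Gstp2 counted as a single gene, an alternative added after seeing the data, had a log2 fold change of 0.03 (edgeR adjusted p = 0.858).

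Gstt1, a theta class enzyme that acts on small halogenated molecules, lies on chromosome 10 from 75783813 to 75798584 and shares no stretch with another gene. It was at 54.6, 40.0 and 38.0 CPM in Bnc1+/+ and 41.2, 59.8 and 54.8 CPM in Bnc1tr/tr ovaries. In each genotype replicate 1 stood apart from the other ovaries, above them in Bnc1+/+ and below them in Bnc1tr/tr, and the genotypes overlapped. The log2 fold change was 0.23 (standard error 0.18, edgeR adjusted p = 0.473). Mgst1, on chromosome 6 from 138140316 to 138156755, had 377, 414 and 319 CPM in Bnc1+/+ and 292, 464 and 392 CPM in Bnc1tr/tr ovaries. Bnc1tr/tr replicates 1 and 2 were the lowest and the highest of the 6 ovaries. The difference on the log2 scale was 0.05 (standard error 0.17, edgeR adjusted p = 0.892), and it was negative without Bnc1+/+ replicate 7 (-0.05) or Bnc1tr/tr replicate 2 (-0.11).

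The ovaries of a genotype kept a partly common order across these genes. Bnc1+/+ replicate 7 had the lowest value of its genotype for 8 of the 10 genes, and Bnc1tr/tr replicate 1 had the lowest value of its genotype for 7 of them. The exceptions in Bnc1tr/tr among the 10 were Gsta1, Gsta2 and Gsta4, for which replicate 2 was the lowest. Over all 25 GST genes tested, Bnc1+/+ replicate 7 was the lowest of its genotype for 19 and Bnc1tr/tr replicate 1 for 17. How often the same ovaries were lowest over all genes tested was not counted, so this order may not be particular to GST genes. Summed over the 10 genes, the level was 1357, 1362 and 1085 CPM in Bnc1+/+ and 1237, 1711 and 1654 CPM in Bnc1tr/tr ovaries, which overlap.

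Other GST genes were read in the same way. Of 19 further genes of the family, 16 were matched to the table and 15 were tested, and 1 was called, as lower, a share near that of all genes. This was Gsto1, an omega class enzyme with thiol transferase and dehydroascorbate reductase activity, at 69.1, 72.2 and 65.2 CPM in Bnc1+/+ and 47.0, 53.8 and 53.5 CPM in Bnc1tr/tr ovaries. Every Bnc1tr/tr ovary was below every Bnc1+/+ ovary, and the log2 fold change was -0.42 (standard error 0.09, edgeR adjusted p = 0.0330). The call was lost with scaling by library size alone (edgeR adjusted p = 0.0610) and when Bnc1+/+ replicate 1, 4 or 7 or Bnc1tr/tr replicate 1 or 3 was left out (edgeR adjusted p between 0.0543 and 0.145). Over the 15 genes the median log2 fold change was -0.05, with 7 positive and 8 negative values.

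Mgst2, a membrane-bound relative of Mgst1 that can form leukotriene C from its precursor, had the log2 fold change of largest size among the 15 other GST genes, but was not called. It was at 39.3, 43.8 and 33.1 CPM in Bnc1+/+ and 4.37, 17.3 and 15.4 CPM in Bnc1tr/tr ovaries. The genotypes were far apart, but Bnc1tr/tr replicate 1 also lay far below the other Bnc1tr/tr ovaries. The log2 fold change was -1.65 (standard error 0.42, edgeR adjusted p = 0.0591), and without Bnc1tr/tr replicate 1 it was -1.25 with an edgeR adjusted p of 0.0069. It was also past the threshold with DESeq2 (adjusted p = 0.0346), limma-voom (adjusted p = 0.0383) and without the filter (edgeR adjusted p = 0.0231). Under the other 10 alternatives it was not, with adjusted p between 0.0582 and 0.198, the highest without Bnc1+/+ replicate 4. Mgst3, the third membrane-bound gene, was slightly higher in every Bnc1tr/tr ovary, with 66.4 ± 4.33 against 76.6 ± 4.58 CPM (SD, n = 3; log2 fold change 0.21, edgeR adjusted p = 0.199). The summed membrane-bound class had 475 ± 56.9 and 472 ± 91.1 CPM (SD, n = 3; exact two-sided permutation p = 0.9).

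Among the remaining genes at 10 CPM or more, 3 mu class neighbours had negative log2 fold changes, of -0.45 for Gstm6 (standard error 0.13, edgeR adjusted p = 0.0719), -0.53 for Gstm7 (standard error 0.27, edgeR adjusted p = 0.280) and -0.23 for Gstm4 (standard error 0.21, edgeR adjusted p = 0.555). Gstm6 did not overlap, with 14.8 ± 0.624 CPM in Bnc1+/+ and 10.8 ± 1.30 CPM in Bnc1tr/tr ovaries (SD, n = 3), and DESeq2 called it (adjusted p = 0.0326). The theta class gene Gstt2 had a log2 fold change of 0.52 (standard error 0.23, edgeR adjusted p = 0.219), and the kappa class gene Gstk1, whose product resides in mitochondria and peroxisomes, had 0.35 (standard error 0.20, edgeR adjusted p = 0.332). Gstz1, which isomerizes maleylacetoacetate in tyrosine breakdown, Gstcd and Gstp2 had log2 fold changes of -0.06, 0.11 and -0.05, and none was called. By class, the mu class summed to 764 ± 114 and 976 ± 189 CPM (exact two-sided permutation p = 0.3), the pi class to 108 ± 4.74 and 109.9 ± 0.517 CPM (exact p = 0.7) and the theta class to 72.3 ± 15.8 and 91.7 ± 19.2 CPM (exact p = 0.2; SD, n = 3). Adjusted over the 5 classes with the Benjamini-Hochberg method, no exact permutation p was under 0.667.

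**Figure D4:**
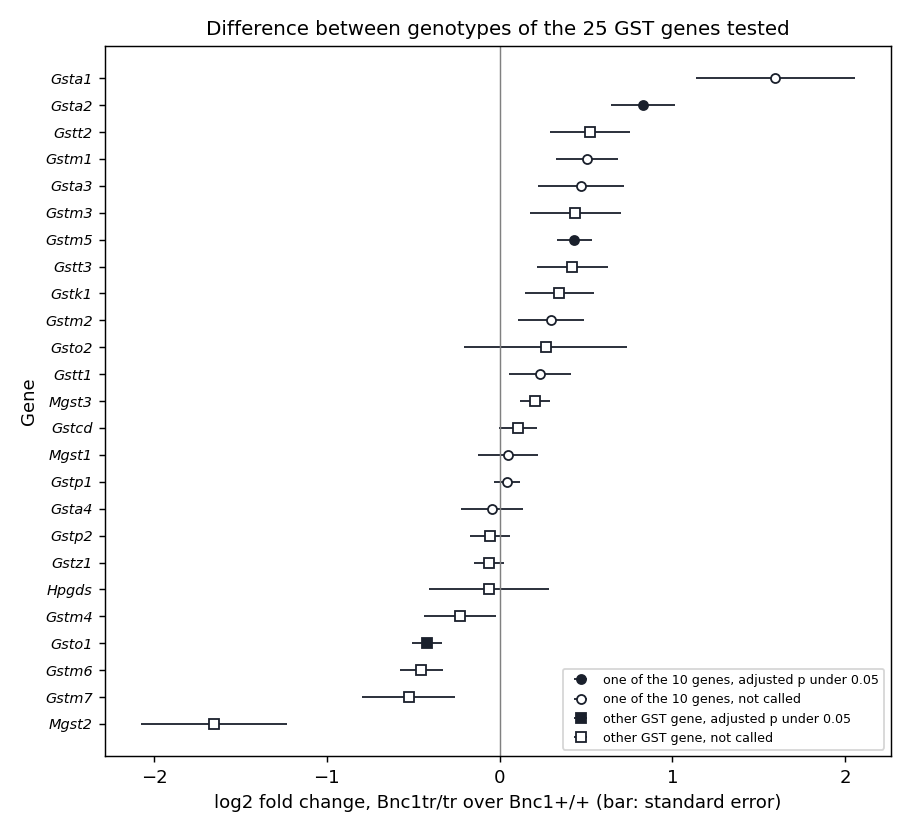
Log2 fold change of Bnc1tr/tr over Bnc1+/+ ovaries (horizontal axis, bars are standard errors) for the 10 GST genes (circles) and 15 other GST genes (squares), filled where the edgeR adjusted p was under 0.05. The 3 filled points are Gsta2 and Gstm5, higher in Bnc1tr/tr ovaries, and Gsto1, lower.

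Genes that supply glutathione to these enzymes or work beside them were counted from lists chosen by function. Of 23 genes for the export and breakdown of glutathione conjugates none was called by edgeR (6 at an unadjusted p under 0.05, near the 24.2% of all genes), 1 was called by DESeq2, which called 12.5% of all genes, and the median log2 fold change was -0.04. Of 21 genes that make or recycle glutathione, 2 were lower and none higher, with a median of -0.09. These were Idh1, which makes cytosolic NADPH (1705 ± 146 to 672 ± 247 CPM, log2 fold change -1.34, edgeR adjusted p = 0.0283), and Hagh, a glyoxalase that releases glutathione (53.2 ± 2.11 to 36.6 ± 1.04 CPM, log2 fold change -0.54, edgeR adjusted p = 0.00795; SD, n = 3). Of 12 glutathione peroxidases and peroxiredoxins tested, 4 were lower and none higher, with a median of -0.36.

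The 4 lower genes of that group remove peroxides with glutathione or thioredoxin. Gpx3, a secreted glutathione peroxidase, fell from 1355 ± 214 to 594 ± 59.7 CPM (log2 fold change -1.19, edgeR adjusted p = 0.00441). Gpx4, which reduces lipid hydroperoxides in membranes, fell from 48.4 ± 1.64 to 34.8 ± 3.10 CPM (log2 fold change -0.47, edgeR adjusted p = 0.0258). Prdx6 (log2 fold change -0.95, edgeR adjusted p = 0.0023) and Prdx2 (log2 fold change -0.63, edgeR adjusted p = 0.0293) were also lower. In all 4 genes every Bnc1tr/tr ovary was below every Bnc1+/+ ovary. Over the 12 genes tested such separation was found for 6 genes, and 2 genes were separated in the opposite direction. The shares of all genes tested were 15.8% and 15.0%. Without Bnc1+/+ replicate 1, 4 or 7 the calls in this group fell from 4 to 2, and those among the glutathione supply genes from 2 to 1, 0 and 1. In the same fits the share of all genes called fell from 7.06% to 3.93%, 1.6% and 2.59%.

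Many GST genes are textbook targets of NRF2, a transcription factor that binds the antioxidant response element. Of 28 NRF2 pathway genes, 1 was lower (Akr1a1, an aldehyde reductase, log2 fold change -0.47, edgeR adjusted p = 0.0427) and none higher, with a median of -0.01. That list had 0 calls without Bnc1+/+ replicate 1, 4 or 7 or Bnc1tr/tr replicate 3 (7 at an unadjusted p under 0.05 with all ovaries), and 2 without Bnc1tr/tr replicate 1 or 2. The fits with 0 calls in the list called between 1.6% and 3.93% of all genes. Those without Bnc1tr/tr replicate 1 or 2 called 4.89% and 6.4%. Of 32 other conjugating and xenobiotic enzymes tested, 1 was lower (Ephx2, the soluble epoxide hydrolase, log2 fold change -0.98, edgeR adjusted p = 0.00704) and none higher, with a median of 0.23. Both lists thus held a share of lower calls near the 4.19% of all genes tested. The core letters of the element, TGACNNNGC on either strand, were looked for in the 300 bases of RefSeq promoters (GRCm38.p6, 250 before and 50 after the start site), of which there were 11 for 9 of the 10 genes. They occurred in 3 of the 11, each from a different gene, and in 12.4% of all 32851 promoters. The 29-base windows are shown because they place the match, in capitals and read along the gene's strand, beside genes that differed in their result. Those of Gsta3, Gstm5 and Mgst1 lie at chr1:21240454-21240482, chr3:107895802-107895830 and chr6:138140461-138140489, all on the plus strand, and the match begins 121, 42 and 56 bases upstream of the start site.
Gsta3: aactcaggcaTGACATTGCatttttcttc
Gstm5: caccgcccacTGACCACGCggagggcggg
Mgst1: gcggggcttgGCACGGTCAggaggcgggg

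Among the 3, Gstm5 was called, while Gsta3 and Mgst1 were not, and Gsta2, the other called gene, held no match in this window. The match in Mgst1 is on the opposite strand. The letters AAGGTCA, recognized by the steroidogenic factors of the NR5A family, occurred in none of the 11 promoters and in 4.72% of all promoters. A match is a description of the letters and not a binding site.

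GST proteins are known in steroid-producing cells, so steroidogenic genes and cell type markers were read in the same ovaries. Of 19 steroidogenic enzymes and carriers, 5 were lower and 1 higher, with a median log2 fold change of -0.42. These 6 calls fell to 2 without Bnc1+/+ replicate 1, 4 or 7, to 3 without Bnc1tr/tr replicate 3 and to 3 without the most highly counted genes. The share of all genes called fell from 7.06% to 3.93%, 1.6% and 2.59% without Bnc1+/+ replicates 1, 4 and 7. It was 3.18% without Bnc1tr/tr replicate 3 and 7.03% without the most highly counted genes. The 5 lower steroidogenic genes were Star, which delivers cholesterol to mitochondria (-2.23, edgeR adjusted p = 0.0374), Cyp11a1, which cleaves its side chain (-1.52, edgeR adjusted p = 0.0261), Hsd3b1 (-0.72, edgeR adjusted p = 0.0391), Hsd17b7 (-3.82, edgeR adjusted p = 0.00683) and the lipoprotein receptor Scarb1 (-1.86, edgeR adjusted p = 0.000408). Srd5a1, a steroid reductase, was higher (0.85, edgeR adjusted p = 0.0403). All 5 lower genes are also among the corpus luteum markers, of which 11 of 19 tested were lower and none higher. Hsd17b7, the gonadotropin receptor Lhcgr (-3.01), Sfrp4 (-2.54), Runx2 (-2.34), Star and the prostaglandin receptor Ptgfr (-2.05) had the largest log2 fold changes of that list. The summed level of the luteal list ranged from 25062 to 30185 CPM in Bnc1+/+ and from 8095 to 13772 CPM in Bnc1tr/tr ovaries. Over the same ovaries the sum of the 10 GST genes ranged from 1085 to 1362 CPM and from 1237 to 1711 CPM.

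The lowest luteal sum, 8095 CPM, was that of Bnc1tr/tr replicate 1, which was also the lowest Bnc1tr/tr ovary for Gsta3, Gstm1, Gstm2, Gstm5, Gstp1, Gstt1, Mgst1 and Mgst2. Of 16 granulosa cell markers tested only the hormone gene Amh was called, as higher, at a log2 fold change of 1.06. The log2 fold change was positive for 10 of the 16 and negative for 6, with a median of 0.13. Their sum, in which abundant markers weigh most, was between 6206 and 7423 CPM in Bnc1+/+ ovaries. It was 9400, 6489 and 8413 CPM in Bnc1tr/tr replicates 1, 2 and 3. Oocyte markers (20 tested, 6 higher, namely Mos, Dazl, Oosp1, Bmp15, Npm2 and Gdf9 at log2 fold changes of 1.12 to 0.78) summed to between 960 and 1217 CPM in Bnc1+/+ and to 1869, 1205 and 1775 CPM. In both sums Bnc1tr/tr replicates 1 and 3 were above every Bnc1+/+ ovary, and replicate 2 lay within the Bnc1+/+ range. Replicates 1 and 3 were also the Bnc1tr/tr ovaries with the high values of Gsta1, Gsta2 and Gm10639. Gsta4 was also lowest in replicate 2 among the Bnc1tr/tr ovaries, but its genotypes overlapped. The part of the luteal, granulosa and oocyte markers in these GST values was not tested.

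**Figure D5:**
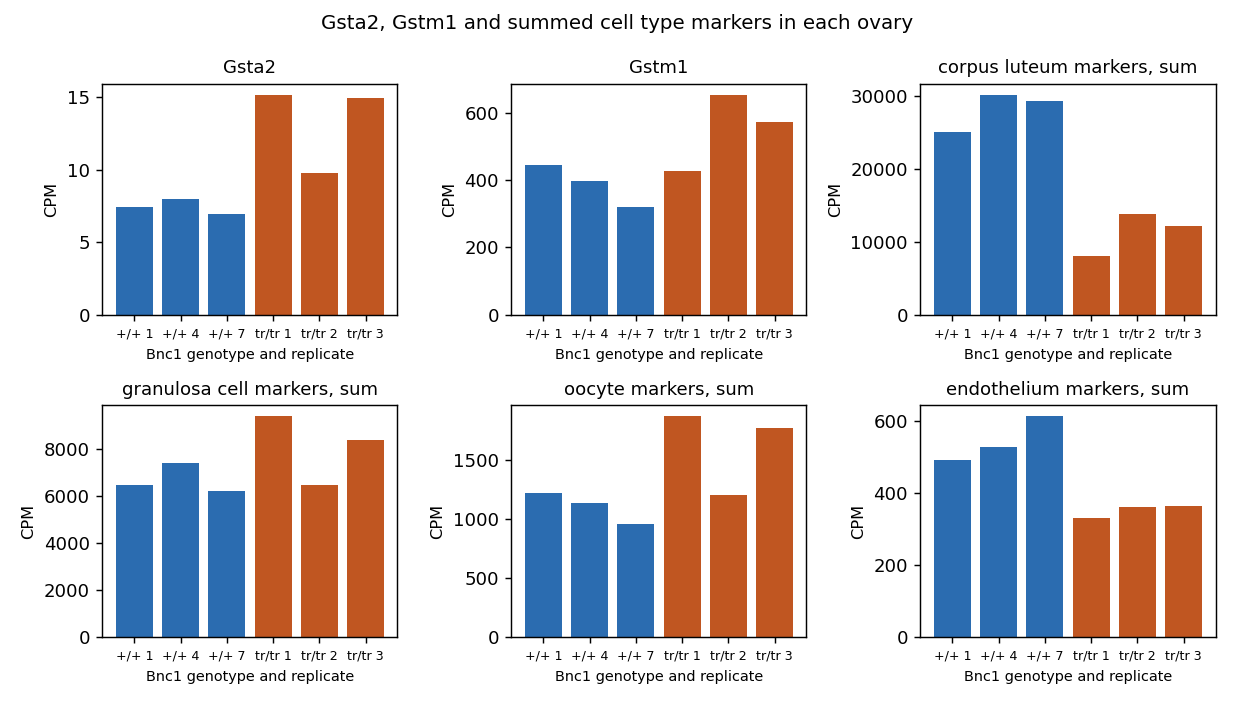
CPM (vertical axes start at 0) of Gsta2 and Gstm1 and summed CPM of the corpus luteum, granulosa cell, oocyte and endothelium markers in each of the 6 ovaries, blue for Bnc1+/+ and orange for Bnc1tr/tr. Gsta2, granulosa cell and oocyte markers are lowest in replicate 2 of the Bnc1tr/tr ovaries, whereas Gstm1 and the luteal sum are lowest in replicate 1.

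Endothelium markers (7 tested, with Flt1, Pecam1, Cdh5, Kdr and Tek lower at log2 fold changes of -0.99 to -0.58 and Vwf higher at 0.75) summed to between 492 and 613 CPM in Bnc1+/+ and between 329 and 363 CPM in Bnc1tr/tr ovaries. Theca cell markers (11 tested, Star lower and Nr2f2 higher at a log2 fold change of 0.53) ranged from 4771 to 6234 CPM and from 3191 to 4843 CPM, and stroma markers (9 tested, none called by edgeR, 2 at an unadjusted p under 0.05, again near the share of all genes) from 2829 to 3426 CPM and from 2642 to 4138 CPM. Surface epithelium (10 tested, Lrrn4 higher at a log2 fold change of 1.22), macrophage (8 tested) and erythroid markers (5 tested) overlapped between the genotypes, and of the latter 2 lists edgeR called none, with 1 gene each at an unadjusted p under 0.05. Markers of tissue around the ovary differed between single ovaries. Oviduct epithelium markers (11 tested, none called by edgeR, 1 at an unadjusted p under 0.05) summed to 539 CPM in Bnc1tr/tr replicate 3 and to between 28.9 and 158 CPM in the others. Adipocyte markers (9 tested, Plin1 higher at a log2 fold change of 1.28) summed to 558 and 362 CPM in Bnc1tr/tr replicates 1 and 2 and to between 54.1 and 164 CPM in the others. Markers of hepatocytes, cells rich in alpha class GSTs, had 5 of 8 genes tested and 1 higher, Apoa1 at a log2 fold change of 1.13, and summed to between 51.9 and 62.6 CPM in Bnc1+/+ and between 100.6 and 146 CPM in Bnc1tr/tr ovaries. Most of that sum was Apoa1, while the defining hepatocyte marker Alb, named after its values were seen, was at 1.23 ± 1.30 CPM in Bnc1+/+ and 0.286 ± 0.149 CPM in Bnc1tr/tr ovaries (SD, n = 3). Beside Gsta1 and Gsta2 these values are given as measured, and their part in the difference was not tested.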

How the data were processed

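The authors deposited raw counts, whole numbers of reads per gene and ovary without normalization, from single-end Ion Proton libraries of total RNA. The submitters' processing notes name the builds mm10 and, for reasons not given, Sscrofa10.2. The aligner, the counting method and its use of strand are not given in the sources used here. Totals ran from 25247770 to 34406296 counts per ovary. Genes were filtered with filterByExpr (minimum count 10), scaled with TMM and compared by edgeR 4.0.16 (glmQLFit, glmQLFTest; R 4.3.3) over all 19423 genes, with two-sided p-values adjusted by the Benjamini-Hochberg method and called under 0.05. Standard errors were the log2 fold change divided by the square root of its F statistic. The labels do not say that the replicates were separate animals. The legend of the study's figure gives 3 biological replicates per genotype, measured in duplicate, but not how these libraries relate to the duplicates. The p-values measure the spread between these samples. For class sums, two-sided exact permutation tests over ovaries were used.

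Alternatives were DESeq2 1.42.0, limma-voom (limma 3.58.1), a robust edgeR fit, DESeq2 size factors, library size alone, other filters, omission of the most highly counted genes or of each ovary, and summed near copies. Positions, exonic lengths and shared stretches came from GENCODE M21, identities from pairwise alignment (Biopython 1.88) and promoters from RefSeq.

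The named genes were the 10 members, other GST genes that were called or had at least 10 CPM, and of each further list the called genes with at least 1 CPM, at most 6. Members and lists were chosen with earlier results of these data known.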

Additional observations from a re-analysis of the deposited data

How the results depend on the processing

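The number of the 10 GST genes called, 2 in the reported fit, was 4 with DESeq2 (Gsta1, Gsta2, Gstm1 and Gstm5), 1 with limma-voom, 1 without the most highly counted genes, 1 with an absolute log2 fold change over 0.5 also required, and 0 with one over 1. Over all genes 12.5% were called with DESeq2, 6.71% with limma-voom and 7.03% without the most highly counted genes, against 7.06%. How many of all genes passed either fold change cutoff was not counted, so the counts at these cutoffs cannot be set against a share. In the 6 fits that each omitted 1 ovary the number of the 10 genes called was between 0 and 2, and was 0 for every ovary but Bnc1tr/tr replicate 2. These fits called between 1.6% and 6.4% of all genes, the most without Bnc1tr/tr replicate 2. In that fit the 2 genes called were Gsta1 and Gsta2, and Gstm5 was not called. Among the other GST genes 1 was called, against 3 with DESeq2, 2 with limma-voom, 2 without the filter, 0 with library size alone, and 0 to 1 with 1 ovary omitted. Over all genes 4.82% were called without the filter and 8.9% with library size alone. The glutathione, NRF2, conjugation and steroidogenic lists together had 14 called genes, 27 with DESeq2 and 5 to 16 with 1 ovary omitted. The shares of all genes called in these fits are those given above. The log2 fold changes under all alternatives gave 148 values for the 10 genes. A summed fit was entered again for each of the 10 genes in the sum, so these values repeat some fits and are not all those of single genes. Of the 148 values, 123 kept their sign and their side of the threshold, 14 lost the call, 5 gained it and 6 changed sign. Under every alternative 7 of the 10 genes kept their sign. The causes were not tested.

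Scaling by library size alone moved the median log2 fold change of all genes from 0.018 to 0.12 and the calls from 559 higher and 813 lower to 1112 higher and 616 lower. It turned Gsta4 to 0.057, Gstp2 to 0.045, Gstz1 to 0.040 and the difference of the summed membrane-bound class from -3.23 to 29.7 CPM. Left-out ovaries also changed signs. Over the 6 such fits the log2 fold change ranged from -0.21 to 0.13 for Gsta4, from -0.0046 to 0.056 for Gstp1, from -0.11 to 0.21 for Mgst1, from -0.14 to 0.021 for Gstp2 and from -0.11 to 0.0020 for Gstz1. The difference of the summed class ranged from -0.818 to 17.2 CPM for alpha (7.78 with all ovaries, negative without Bnc1tr/tr replicate 3), from -0.414 to 4.32 CPM for pi (2.03 with all ovaries, negative without Bnc1+/+ replicate 1) and from -46.9 to 44.0 CPM for the membrane-bound class (positive without Bnc1+/+ replicate 1 or 4 or Bnc1tr/tr replicate 1).

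No paired analysis was possible because the genotypes share only replicate number 1. Gsta1 had 7 to 50 counts per ovary, which limits the precision of its values.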
